A study of Mus musculus with 9 samples.

Results

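The genes described here encode 10 secreted cytokines of T cells, namely Ifng, Il2, Il3, Il4, Il10, Il13, Il21, Csf2, Osm and Spp1, and they were taken by symbol from the 20618 genes measured. The RNA came from primary CD8+ T cells of wild-type mice, lymphocytes that kill infected and tumour cells. All media held 10% dialyzed fetal bovine serum, and live cells were sorted after 24 h. One medium held 2 mM inosine together with hypoxanthine, whose dose carries no readable unit in the labels. It was set against 2 mM inosine alone and against 2 mM glucose, and inosine was also set against glucose. Inosine is the nucleoside in which hypoxanthine, a purine base, is joined to ribose. Each medium had 3 libraries, 9 in all, and nothing in the labels says that these came from separate animals or cultures, so p-values reflect only how these libraries vary, which may be technical. The age of the mice and the way the cells were activated are not given in the sources used here.

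Activated CD8+ T cells secrete cytokines when the T cell receptor and costimulatory receptors raise calcium and kinase signals, which bring NFAT, AP-1 and NF-kappaB factors to cytokine promoters. Interferon gamma is the cytokine these cells are best known for. GM-CSF, interleukin 3 and interleukin 2 act on myeloid cells, on blood precursors and on lymphocytes, while interleukins 4 and 13 mark type 2 responses and interleukin 10 restrains inflammation. Many cytokine mRNAs are short-lived, so their level follows current signalling closely.

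Between 30260321 and 49146281 reads per library were recovered from the deposited tables. Of 8 listed CD8+ T cell markers 5 were measured, and these, among them Cd8a and Cd3e, summed to between 1056 and 1140 FPKM with hypoxanthine, to between 543 and 721 FPKM in inosine and to between 591 and 637 FPKM in glucose. FPKM are fragment counts divided by gene length and by library size. Cd4 stayed at or under 0.0523 FPKM, and Ncr1, Csf1r and Adgre1 stayed at or under 0.042 FPKM in every library. Other genes on the same lists of other cell types were higher. Zbtb7b of the CD4+ T cell list had 5.34 to 6.28 FPKM with hypoxanthine, 4.31 to 6.42 FPKM in inosine and 5.46 to 6.32 FPKM in glucose. Eomes of the natural killer cell list had 8.27 to 10.1 FPKM with hypoxanthine, 9.28 to 11.4 FPKM in inosine and 10.9 to 11.2 FPKM in glucose. Cd68 of the macrophage list had 3.08 to 3.73 FPKM with hypoxanthine, 2.18 to 3.81 FPKM in inosine and 2.83 to 3.8 FPKM in glucose, and Cd79b of the B cell list stayed between 1.07 and 1.7 FPKM in all libraries. Of the epithelial and stromal list, Pecam1 had 3.96 to 4.52 FPKM with hypoxanthine, 2.91 to 3.66 FPKM in inosine and 2.74 to 3.4 FPKM in glucose. Epcam had 1.97 to 2.1 FPKM with hypoxanthine, 1.15 to 1.24 FPKM in inosine and 1.03 to 1.42 FPKM in glucose. Both were higher with hypoxanthine without overlap. Xcr1 of the dendritic cell list ran from 0 to 0.983 FPKM with hypoxanthine and from 0 to 2.23 FPKM in glucose, and was 0 in inosine. Among bulk samples, fewer cells that make a cytokine and less of its RNA per cell cannot be told apart.

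In short, hypoxanthine went with more Csf2, Il3 and Il2 mRNA and less Osm mRNA against both other media, while Ifng did not pass the test. Spp1 and Il13 were lower in every hypoxanthine library but did not pass. Il4 and Il21 were at the limit of detection, and no cytokine gene passed between inosine and glucose.

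Several of the genes are neighbours in the mouse genome (GRCm38, the assembly also called mm10, with gene spans from GENCODE M21). Csf2 (chromosome 11, 54247271 to 54249667) and Il3 (chromosome 11, 54265303 to 54267277) are both on the minus strand with 15635 bases between them and no other protein-coding gene in the gap. Il13 (chromosome 11, 53631324 to 53634702) and Il4 (chromosome 11, 53602982 to 53618669) are also neighbours on the minus strand, 12654 bases apart and 612568 bases from Csf2 at the nearest point. Il2 (chromosome 3, 37120523 to 37125959) and Il21 (chromosome 3, 37222759 to 37232636) are 96799 bases apart with no protein-coding gene between. Ifng is on chromosome 10 (118441046 to 118445892), Spp1 on chromosome 5 (104435118 to 104441050), Il10 on chromosome 1 (131019845 to 131024974) and Osm on chromosome 11 (4236420 to 4241026).

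Promoter sequences are given for Csf2, Il3 and Il2, which passed the test, and for Il13 and Spp1, which did not pass but whose hypoxanthine libraries lay below all others. Osm also passed but had no window at hand. Each is the 250 bases before the RefSeq start on GRCm38.p6, read 5′ to 3′ on the gene's strand. Capitals mark the NFAT core GGAAA and the GATA motif AGATAA, on either strand, which do not overlap in these windows. The windows are chr11:54267280-54267529 for Il3, chr11:54249900-54250149 for Csf2, chr11:53634703-53634952 for Il13 and chr3:37125955-37126204 for Il2, all on the minus strand, and chr5:104434861-104435110 on the plus strand for Spp1.
Il3: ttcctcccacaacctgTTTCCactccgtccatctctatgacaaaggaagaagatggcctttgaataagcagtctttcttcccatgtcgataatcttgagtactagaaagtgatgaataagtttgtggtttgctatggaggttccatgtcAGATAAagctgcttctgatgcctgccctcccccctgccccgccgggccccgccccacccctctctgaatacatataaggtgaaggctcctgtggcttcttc
Csf2: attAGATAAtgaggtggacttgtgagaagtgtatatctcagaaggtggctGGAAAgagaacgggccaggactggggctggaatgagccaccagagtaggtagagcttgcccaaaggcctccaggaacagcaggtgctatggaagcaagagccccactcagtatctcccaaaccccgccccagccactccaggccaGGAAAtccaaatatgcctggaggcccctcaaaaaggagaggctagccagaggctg
Il13: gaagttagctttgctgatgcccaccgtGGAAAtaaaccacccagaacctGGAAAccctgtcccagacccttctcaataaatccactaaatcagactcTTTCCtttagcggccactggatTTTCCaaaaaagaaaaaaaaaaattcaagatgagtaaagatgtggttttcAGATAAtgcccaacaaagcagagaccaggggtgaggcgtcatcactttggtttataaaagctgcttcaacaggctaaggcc
Il2: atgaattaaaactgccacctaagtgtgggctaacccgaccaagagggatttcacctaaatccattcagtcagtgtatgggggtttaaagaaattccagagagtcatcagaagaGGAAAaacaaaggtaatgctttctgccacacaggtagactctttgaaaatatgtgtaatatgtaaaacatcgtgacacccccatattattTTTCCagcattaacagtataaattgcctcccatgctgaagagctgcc
Spp1: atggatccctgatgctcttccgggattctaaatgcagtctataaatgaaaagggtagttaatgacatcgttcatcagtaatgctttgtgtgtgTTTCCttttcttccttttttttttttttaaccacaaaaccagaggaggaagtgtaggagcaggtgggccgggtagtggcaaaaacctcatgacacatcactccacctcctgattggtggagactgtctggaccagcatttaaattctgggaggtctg
The RefSeq start used for Csf2 lies 232 bases upstream of the GENCODE start, so its window is farther from the gene than the others. RefSeq windows were at hand for 8 of the 10 genes, all but Osm and Il10. These were 10 windows, with 2 each for Spp1 and Il4. All 8 genes held an NFAT core in at least 1 window, but 1 of the Il4 windows held none. Counted per window, 55.6% of 32851 windows of this length held it. AGATAA was found in Il3, Csf2 and Il13, but not in the windows of Il4, their neighbour on chromosome 11, and in 9.99% of all windows. It lay at -101 to -96 in Il3, at -247 to -242 in Csf2 and at -81 to -76 in Il13, counted back from the start. The AP-1 motif TGANTCA, held by 6.75% of windows, and the E-box CACGTG, held by 6.02%, were in none of the 8 genes' windows. TATAAA was in Ifng, Spp1, Il13 and Il2 (12.4% of windows). Both strands were searched for every motif.

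Csf2 encodes GM-CSF, a growth and activation factor of macrophages, neutrophils and dendritic cells. It stood at 69.4, 64.8 and 66.1 FPKM in the 3 hypoxanthine libraries, against 39.3, 21 and 28.7 FPKM in inosine replicates 1, 2 and 3 and 44.1, 16.3 and 28.5 FPKM in glucose replicates 1, 2 and 3. All hypoxanthine libraries were above all others, and the 3 lay close together. Csf2 rose 2.25 times against inosine (log2 difference 1.19 ± 0.32, standard error) at a limma adjusted p of 0.0308, and 2.26 times against glucose (1.25 ± 0.32, adjusted p = 0.0255). Differences and their errors here are on the log2(FPKM + 1) scale, the multiples are ratios of mean FPKM, and a gene was called at an adjusted p under 0.05 over all 20618 genes. The call against inosine was lost without hypoxanthine replicate 1, 2 or 3 (adjusted p = 0.0883, 0.0761 and 0.0899), without inosine replicate 2 or 3 (0.0867 and 0.0868) and without glucose replicate 3 (0.054). Against glucose it was lost without any 1 hypoxanthine library (0.0682 to 0.0773) and without glucose replicate 2 or 3 (0.0538 and 0.0708). The log2 difference stayed between 0.89 and 1.59 throughout.

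Il3, the neighbour of Csf2, encodes interleukin 3, which acts on blood precursors, basophils and mast cells. Its level was 12.1, 14.5 and 13.1 FPKM in the hypoxanthine libraries, against 6.85, 2.57 and 4.63 FPKM in inosine replicates 1, 2 and 3 and 7.23, 1.6 and 3.8 FPKM in glucose replicates 1, 2 and 3. No library of the other media reached the lowest hypoxanthine library. Il3 rose 2.82 times against inosine (log2 difference 1.39 ± 0.4, standard error, limma adjusted p = 0.0374) and 3.14 times against glucose (1.6 ± 0.4, adjusted p = 0.0225). The call against inosine was lost without hypoxanthine replicate 1, 2 or 3 (adjusted p = 0.0837, 0.105 and 0.105), inosine replicate 2 or 3 (0.103 and 0.0938) or glucose replicate 3 (0.0638). Against glucose it was lost without hypoxanthine replicate 1, 2 or 3 (0.0563, 0.0725 and 0.0705) or glucose replicate 2 or 3 (0.0518 and 0.066).

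Il2 encodes interleukin 2, the autocrine growth factor of T cells, and was low everywhere. The hypoxanthine libraries held 17, 29 and 18 recovered reads of it (0.305, 0.506 and 0.406 FPKM), inosine replicates 1, 2 and 3 held 5, 0 and 3 reads (0.106, 0 and 0.0559 FPKM) and glucose replicates 1, 2 and 3 held 11, 3 and 4 reads (0.277, 0.0494 and 0.0521 FPKM). All hypoxanthine libraries were above all others, although glucose replicate 1 came close to the lowest hypoxanthine library. Il2 rose with hypoxanthine against inosine (0.406 ± 0.1 against 0.0538 ± 0.0529 FPKM, SD, n = 3, limma adjusted p = 0.00902) and against glucose (0.126 ± 0.131 FPKM, adjusted p = 0.0271). The log2 differences were 0.41 and 0.32, which the added 1 FPKM makes small at such a level. On the reads themselves limma voom gave 3.31 and 1.9. The call against inosine held in every alternative that tested the gene, at an adjusted p of 0.0456 or less. Against glucose it was lost without hypoxanthine replicate 2 or 3 (adjusted p = 0.0908 and 0.0799), without glucose replicate 2 or 3 (0.0897 and 0.101) and with the 2 media alone (0.0613).

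Ifng encodes interferon gamma, the main macrophage-activating and antiviral cytokine of CD8+ T cells. The hypoxanthine libraries stood at 243, 246 and 235 FPKM, inosine replicates 1, 2 and 3 at 255, 159 and 200 FPKM, and glucose replicates 1, 2 and 3 at 259, 107 and 186 FPKM. The groups overlapped, since replicate 1 of each other medium was above all hypoxanthine libraries. The log2 difference was 0.26 against inosine (95% interval -0.39 to 0.92, limma adjusted p = 0.587) and 0.48 against glucose (-0.17 to 1.14, adjusted p = 0.302). Each interval uses a spread pooled over the 3 media. For Ifng the SD of log2(FPKM + 1) was 0.03 with hypoxanthine, 0.34 in inosine and 0.64 in glucose. With spreads this unequal the interval against glucose can be too narrow, so no limit on a fall in Ifng is drawn from these intervals.

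**Figure D1:**
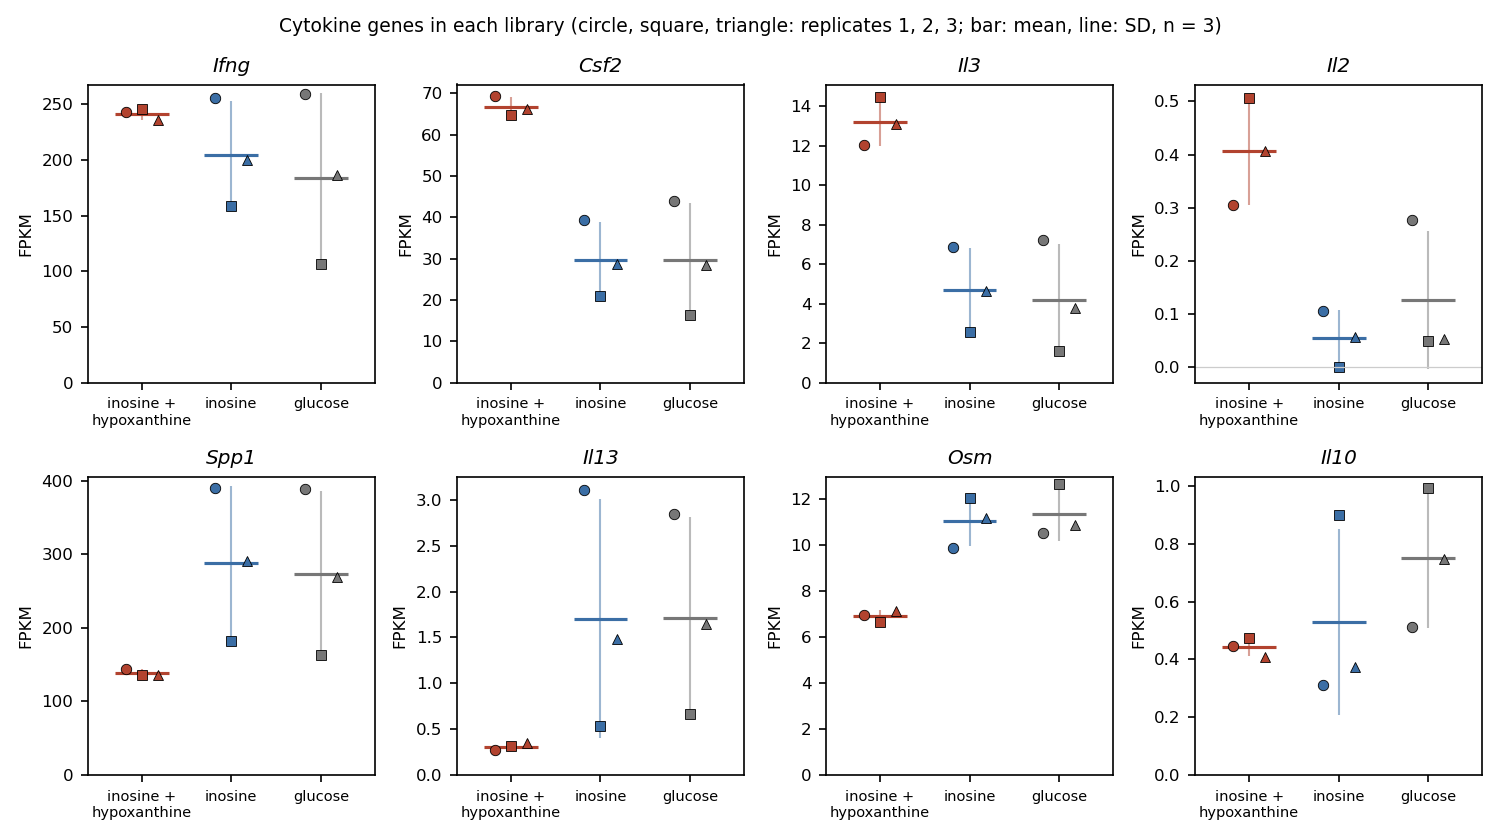
FPKM of 8 cytokine genes in each library, by medium, on linear axes that start at or near 0. Points are libraries, with a circle, a square and a triangle for replicates 1, 2 and 3, horizontal bars are means and vertical lines SD (n = 3). The hypoxanthine libraries lie above the others for Csf2, Il3 and Il2, below them for Spp1, Il13 and Osm, and among them for Ifng.

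Osm encodes oncostatin M, an interleukin 6 family cytokine that acts on stromal and liver cells. It fell to 6.96, 6.64 and 7.12 FPKM with hypoxanthine, against 9.87, 12 and 11.2 FPKM in inosine replicates 1, 2 and 3 and 10.5, 12.7 and 10.9 FPKM in glucose replicates 1, 2 and 3. All hypoxanthine libraries were below all others. It was 1.6 times lower than in inosine (log2 difference -0.6 ± 0.09, standard error, limma adjusted p = 0.00218) and 1.64 times lower than in glucose (-0.64 ± 0.09, adjusted p = 0.00171). Both calls held under all 16 alternatives, at adjusted p of 0.0233 or less against inosine and 0.0419 or less against glucose.

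Spp1 encodes osteopontin, a secreted phosphoprotein that binds CD44 and integrins and acts as a cytokine when T cells and macrophages release it. It stood at 144, 136 and 136 FPKM in the hypoxanthine libraries, against 390, 182 and 291 FPKM in inosine replicates 1, 2 and 3 and 388, 163 and 269 FPKM in glucose replicates 1, 2 and 3. All hypoxanthine libraries were below all others, and replicate 2 of each other medium was nearest to the hypoxanthine libraries. Mean Spp1 was 0.481 times its inosine level (log2 difference -0.98 ± 0.33, standard error) and 0.507 times its glucose level (-0.89 ± 0.33). It did not pass at a limma adjusted p of 0.0674 against inosine and 0.095 against glucose. It passed without inosine replicate 2 (0.0245), glucose replicate 1 (0.0458) or glucose replicate 2 (0.0357) against inosine, and without glucose replicate 2 (0.0296) against glucose. In the authors' deposited table, where the change is given as inosine over hypoxanthine medium, Spp1 had a log2 value of 1.09 and an adjusted p of 1.4e-06. Macrophages are another known source of osteopontin: their 6 markers summed to between 3.19 and 3.88 FPKM with hypoxanthine, 2.57 to 4.24 FPKM in inosine and 3.07 to 4.27 FPKM in glucose. Cd68 made up most of these sums, and Csf1r, Adgre1 and Itgam were at or under 0.0155 FPKM and Lyz2 at or under 0.0558 FPKM. Cd14, also on the list, was at 0.1 to 0.108 FPKM with hypoxanthine, 0.36 to 0.526 FPKM in inosine and 0.24 to 0.409 FPKM in glucose, lower with hypoxanthine without overlap. The part of such cells in the Spp1 result was not tested.

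Il13 encodes interleukin 13, which drives mucus and fibrosis in type 2 responses. It had 0.27, 0.311 and 0.351 FPKM in the hypoxanthine libraries (19, 23 and 20 reads), against 3.11, 0.53 and 1.48 FPKM in inosine replicates 1, 2 and 3 (177, 36 and 88 reads) and 2.85, 0.661 and 1.65 FPKM in glucose replicates 1, 2 and 3 (141, 37 and 133 reads). All hypoxanthine libraries were below all others, while the inosine and glucose libraries varied widely among themselves. Its mean was 0.182 times the inosine level and 0.181 times the glucose level. It did not pass (log2 difference -0.93 ± 0.37, limma adjusted p = 0.114 against inosine, and -0.97 ± 0.37, adjusted p = 0.102 against glucose). It passed against inosine without inosine replicate 2 (adjusted p = 0.0312), and against glucose with a pseudocount of 0.1 FPKM (0.0478). In the authors' deposited table its log2 value as inosine over hypoxanthine medium was 2.47 at an adjusted p of 4.73e-05. Basophils and mast cells also make interleukin 13. Of their 4 markers 2 were measured, which summed to between 0.119 and 0.504 FPKM with hypoxanthine, 2.31 to 3.95 FPKM in inosine and 2.82 to 3.37 FPKM in glucose. Nearly all of this was Mcpt8, a member of the granzyme and mast cell protease family, and Cpa3 was at 0 with hypoxanthine and in inosine and at most 0.0223 FPKM in glucose. The part of such cells in the Il13 result was not tested.

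Il10, Il4 and Il21 were scarce. Il10, which encodes the anti-inflammatory interleukin 10, had 0.446, 0.474 and 0.409 FPKM with hypoxanthine, against 0.311, 0.899 and 0.375 FPKM in inosine replicates 1, 2 and 3 and 0.511, 0.992 and 0.746 FPKM in glucose replicates 1, 2 and 3. The hypoxanthine and inosine libraries overlapped, and those of hypoxanthine lay just below those of glucose. The log2 difference was -0.06 ± 0.14 against inosine (limma adjusted p = 0.818) and -0.27 ± 0.14 against glucose (adjusted p = 0.243). Il4, the neighbour of Il13 and the defining type 2 interleukin, had 5 reads in hypoxanthine replicate 3 and 2 reads each in inosine replicates 1 and 2, and none in the other 6 libraries. A count of 0 among 113425044 glucose reads allows up to 3 Il4 reads over the 3 libraries, counting error only. Il21, the neighbour of Il2 and a helper cytokine for B cells and for lasting CD8+ T cell responses, had 2 reads in hypoxanthine replicate 1 and none elsewhere. No difference in Il4 or Il21 was detected, and at such read numbers a small one could not be.

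Against inosine, 3 of the 10 genes rose and 1 fell, beside 11.7% of all 20618 genes higher and 9.59% lower (21.3% in either direction). Against glucose the same 3 genes rose and the same 1 fell, beside 10.8% of all genes higher and 9.55% lower (20.3% in either direction). The count against inosine was 2 in all without any 1 hypoxanthine library, without inosine replicate 3 or without glucose replicate 3. The count against glucose was 2 without hypoxanthine replicate 1 or glucose replicate 2, and 1 without hypoxanthine replicate 2 or 3 or glucose replicate 3. With 10 genes these shares cannot be called particular to cytokines. An unadjusted p under 0.05 was found for 6 of the 10 genes in each of these comparisons, beside 32.5% of all genes against inosine and 32.6% against glucose. The libraries did not overlap for 6 of 10 genes against inosine (3 higher and 3 lower), beside 34.4% of all genes (18.7% higher and 15.6% lower). Against glucose they did not overlap for 7 of 10 (3 higher and 4 lower), beside 37.6% of all genes (19.8% higher and 17.8% lower). The median log2 difference of the 10 genes was 0.01 against inosine and 0.03 against glucose, beside 0.0016 and 0.0012 over all genes. Both comparisons use the same hypoxanthine libraries. All genes here include those averaging under 1 FPKM, whose differences the added 1 FPKM makes small. Of the 20618 genes, 9947 averaged 1 FPKM or more. Shares and medians among those alone are not given, here or for the lists below. In the authors' deposited table an adjusted p under 0.05 was given against inosine for 6 of the genes, Spp1 and Il13 in addition to Csf2, Il3, Il2 and Osm, and 5 against glucose, where Il2 was not among them (adjusted p = 0.112).

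**Figure D2:**
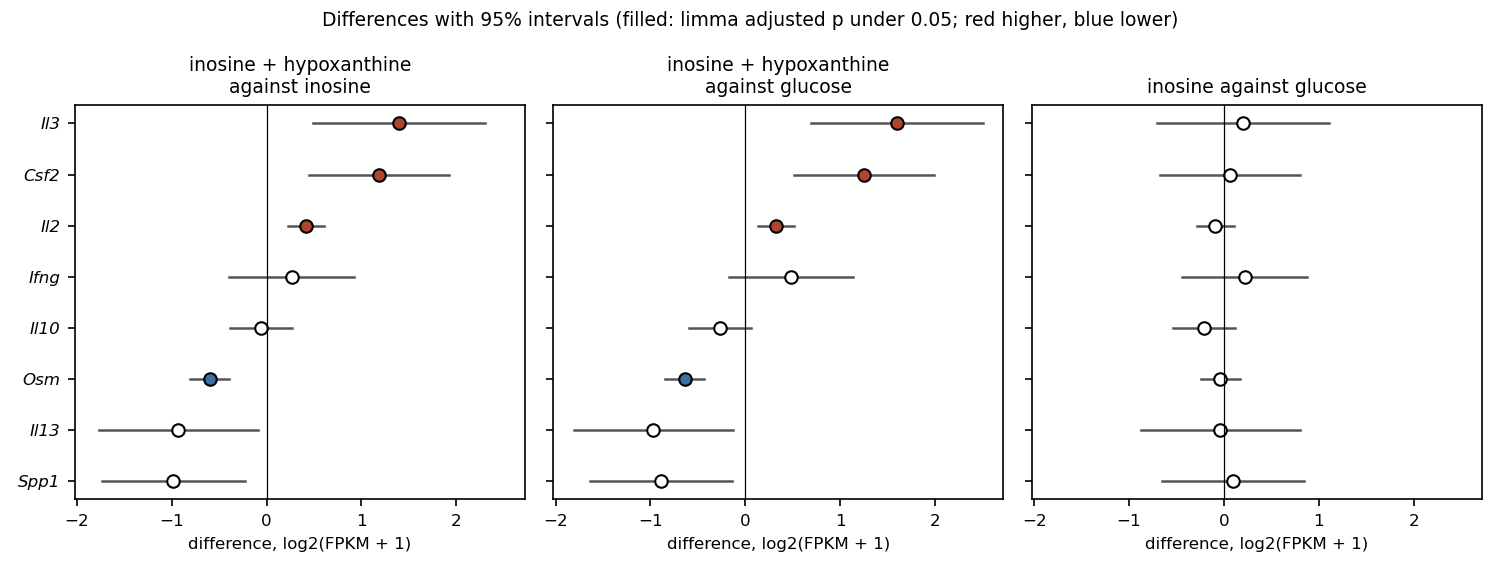
Log2(FPKM + 1) differences of 8 cytokine genes with 95% intervals from limma, for each of the 3 comparisons. Filled points passed at an adjusted p under 0.05, red for higher and blue for lower. Il3, Csf2 and Il2 are filled red and Osm blue in both comparisons with hypoxanthine, and no point is filled for inosine against glucose.

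Between inosine and glucose none of the 10 genes passed. limma called 0 of them, beside 0.0097% of all genes (2 of 20618, 0.00485% higher and 0.00485% lower), and 0 had an unadjusted p under 0.05, beside 2.83% of all genes. limma voom on recovered reads also called 0. No gene had groups that did not overlap, beside 5.05% of all genes (2.23% higher and 2.83% lower). Csf2 averaged 29.7 ± 9.2 FPKM in inosine and 29.6 ± 13.9 FPKM in glucose, Spp1 288 ± 104 FPKM in inosine and 273 ± 112 FPKM in glucose, and Il13 1.71 ± 1.31 FPKM in inosine and 1.72 ± 1.09 FPKM in glucose (SD, n = 3 each). The 95% intervals of the log2 differences ran from -0.67 to 0.8 for Csf2, from -0.66 to 0.84 for Spp1, from -0.44 to 0.87 for Ifng and from -0.7 to 1.11 for Il3. The interval for Osm, from -0.24 to 0.17, was the narrowest among the 6 genes averaging 1 FPKM or more. All these intervals use a spread pooled over the 9 libraries, the hypoxanthine libraries included. For Csf2 the SD of log2(FPKM + 1) was 0.05 with hypoxanthine, 0.44 in inosine and 0.69 in glucose. Where the spread is this unequal, the intervals can be too narrow for inosine against glucose.

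The wide intervals come with a spread among the inosine and glucose libraries that the hypoxanthine libraries lacked. For Ifng the SD was 2.27% of the mean with hypoxanthine, 23.7% in inosine and 41.3% in glucose. For Csf2 it was 3.58% with hypoxanthine, 31% in inosine and 47.1% in glucose, and for Spp1 3.63% with hypoxanthine, 36.2% in inosine and 41.2% in glucose. Il3 had 9.07% with hypoxanthine, 45.7% in inosine and 67.4% in glucose, and Il13 had 13% with hypoxanthine, 76.5% in inosine and 63.7% in glucose. Among 9947 genes averaging 1 FPKM or more, the median was 7.1% with hypoxanthine, 10.5% in inosine and 7.54% in glucose. In glucose these 5 genes were more variable than 99.1% or more of those genes, and in inosine than 91.9% or more. Osm, at 3.52% with hypoxanthine, 9.86% in inosine and 10.2% in glucose, was not.

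The spread followed an order that several of these genes shared. In both inosine and glucose, replicate 1 was highest, replicate 3 between and replicate 2 lowest for Ifng, Spp1, Csf2, Il3 and Il13, 5 of the 6 cytokine genes averaging 1 FPKM or more. This order held in both media for 7.03% of the 9947 genes. Osm had the reverse order in both media, as 9.63% of genes did. In inosine, replicate 1 exceeded replicate 2 by 1.61 times for Ifng, 1.87 for Csf2, 2.67 for Il3, 2.15 for Spp1 and 5.87 for Il13. In glucose, it did so by 2.42 times for Ifng, 2.71 for Csf2, 4.51 for Il3, 2.38 for Spp1 and 4.31 for Il13. With hypoxanthine, Spp1 and Csf2 kept that order over a range of 1.06 and 1.07 times, and Ifng, Il3 and Il13 did not keep it. The labels do not say whether libraries of equal number share animals, cultures or handling.

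Because these genes shared an order across the inosine and the glucose libraries, their levels were also set against Ifng within each library, a measure chosen after the values were seen. Csf2 was 0.286, 0.263 and 0.281 times Ifng in the hypoxanthine libraries, against 0.154, 0.132 and 0.143 times in inosine and 0.17, 0.153 and 0.153 times in glucose. The hypoxanthine libraries were above all others. Spp1 was 0.594, 0.552 and 0.577 times Ifng with hypoxanthine, against 1.53, 1.15 and 1.46 times in inosine and 1.5, 1.53 and 1.44 times in glucose. Il3 was 0.0497, 0.0588 and 0.0558 times Ifng with hypoxanthine, against 0.0162 to 0.0268 times in inosine and 0.015 to 0.028 times in glucose. Il13 was 0.00111 to 0.00149 times Ifng with hypoxanthine, against 0.00334 to 0.0122 times in inosine and 0.00619 to 0.011 times in glucose. Each of these 4 ratios separated hypoxanthine from both other media without overlap. The two-sided exact permutation p was 0.1, the smallest that 3 libraries against 3 allow. The FPKM of Csf2, Il3, Spp1 and Il13 already separated without overlap in both comparisons, so their ratios to Ifng are no further support. The share of all genes whose ratio to Ifng separates is not given. Between inosine and glucose the exact permutation p ran from 0.3 for Csf2 to 0.8 for Il3. Spp1 per Csf2 was 2.08, 2.09 and 2.05 with hypoxanthine, against 9.93, 8.66 and 10.2 in inosine and 8.8, 10 and 9.44 in glucose (exact permutation p = 0.1 against each). Il13 per Spp1 was also lower with hypoxanthine without overlap (exact permutation p = 0.1 against each). Il3 per Csf2 did not separate from inosine: it was 0.174, 0.223 and 0.198 with hypoxanthine and 0.174, 0.122 and 0.161 in inosine (exact permutation p = 0.2). In glucose it was 0.164, 0.0985 and 0.133 (exact permutation p = 0.1).

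**Figure D3:**
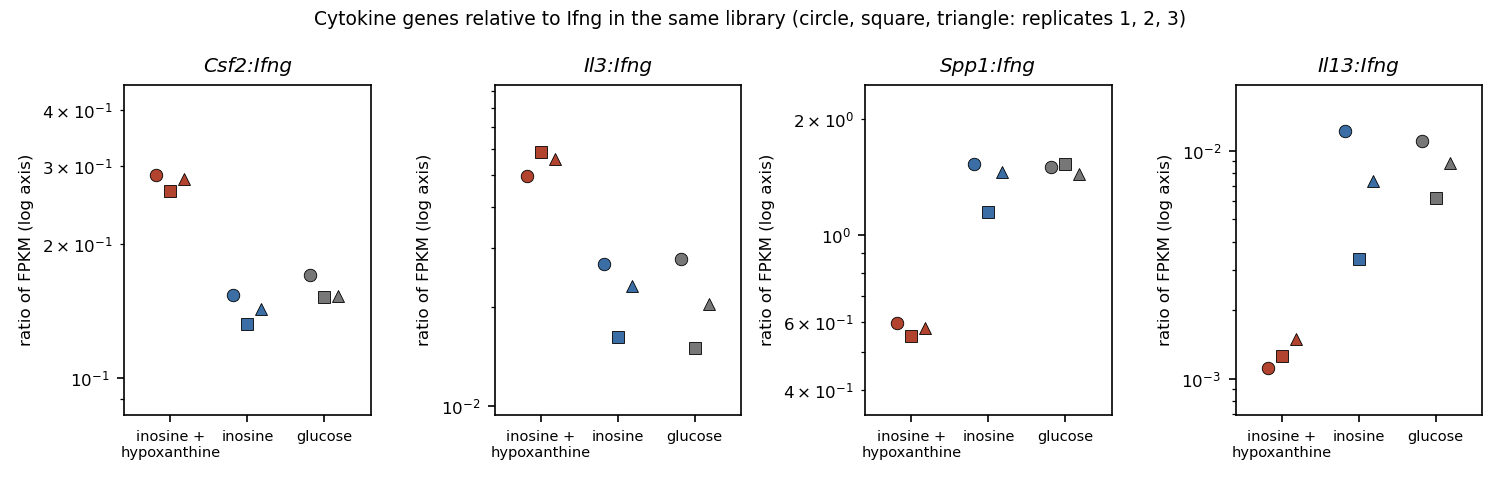
Ratio of FPKM of Csf2, Il3, Spp1 and Il13 to that of Ifng in the same library, by medium, on log axes, with a circle, a square and a triangle for replicates 1, 2 and 3. The hypoxanthine libraries are above all others for Csf2 and Il3 and below all others for Spp1 and Il13.

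The order of levels also differed. With hypoxanthine Ifng was highest at 241 ± 5.47 FPKM, followed by Spp1 at 139 ± 5.03, Csf2 at 66.8 ± 2.39, Il3 at 13.2 ± 1.2 and Osm at 6.91 ± 0.243 FPKM (SD, n = 3), with no overlap between neighbours. In inosine and in glucose Spp1 was first and Ifng second, with overlapping libraries, then came Csf2, and Osm stood above Il3. Il10, Il2 and Il13 overlapped at the low end with hypoxanthine. The 10 genes summed to 468 ± 9.09 FPKM with hypoxanthine, 540 ± 164 FPKM in inosine and 505 ± 205 FPKM in glucose (SD, n = 3), and Ifng and Spp1 made up 80.9 to 81.4% of the sum with hypoxanthine, 90.2 to 91.5% in inosine and 89.3 to 90.9% in glucose.

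Among 6823 genes averaging 5 FPKM or more, the pattern over the 9 libraries most like Csf2 was that of Xcl1 (Pearson r = 0.994), a chemokine gene, followed by Il3 itself (0.992). The genes most like Ifng were Ccl4 (0.978), also a chemokine gene, and Serpinb6b (0.95). For Il3 they were Csf2 (0.992) and Bcl2a1b (0.992), whose reads can be shared with near-identical copies. For Spp1 they were Jmjd6 (0.984) and Tec (0.982), for Il13 Errfi1 (0.988) and Ero1a (0.986), and for Osm Pitrm1 (0.997) and Prmt7 (0.994). These are descriptions over 9 libraries that share 3 media.

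Other secreted cytokine genes also went in both directions with hypoxanthine. Of 27 listed, 23 were measured, and against inosine 4 rose, 4 fell and 15 did not pass, beside 11.7% of all genes higher and 9.59% lower, with a median log2 difference of -0.013. Csf1, the macrophage growth factor M-CSF, rose to 13.7 ± 2.03 FPKM, against 1.67 ± 0.604 FPKM in inosine and 2.05 ± 1.03 FPKM in glucose (SD, n = 3, limma adjusted p = 0.000353 against inosine). Il24, an interleukin 10 family cytokine encoded near Il10, fell to 0.2 ± 0.0835 FPKM, against 5.53 ± 2.33 FPKM in inosine and 4.95 ± 1.77 FPKM in glucose (adjusted p = 0.000697 against inosine). The most abundant were Mif and Tgfb1, and neither passed: Mif had 862 ± 29.3 FPKM with hypoxanthine, 1009 ± 100 in inosine and 1035 ± 76 in glucose, and Tgfb1 had 102 ± 17.2 with hypoxanthine, 94.2 ± 23.5 in inosine and 110 ± 10.9 in glucose. Among the rest that passed against inosine were the enkephalin precursor gene Penk (24.1 ± 3.06 against 5.82 ± 1.8 FPKM) and Flt3l (14.5 ± 1.12 against 33.4 ± 3.47 FPKM), named after their values were seen. Il5, a type 2 interleukin gene also named after its values were seen, was at 0.016 ± 0.0155 FPKM with hypoxanthine and 0.17 ± 0.0862 FPKM in inosine (adjusted p = 0.0199). Il15 and Areg, named in the same way, are among the rises. They averaged 0.0337 and 0.3 FPKM with hypoxanthine, against 0 and 0.0363 FPKM in inosine. The calls of Il5, Il15 and Areg rest on values near the floor.

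Receptors for the 10 cytokines showed 7 rises, 4 falls and 10 that did not pass among 21 measured of 23, against inosine and against glucose alike by count, beside 21.3% of all genes called in either direction against inosine and 20.3% against glucose. Il3ra, the ligand-binding chain for interleukin 3, rose to 7.2 ± 0.661 FPKM, against 3.24 ± 0.053 FPKM in inosine and 3.6 ± 0.233 FPKM in glucose (limma adjusted p = 9.09e-05 against inosine). Il21r rose to 83.6 ± 8.33 FPKM, against 41.9 ± 2.67 in inosine and 44.5 ± 3.13 in glucose (adjusted p = 0.000219 against inosine). The shared gamma chain gene Il2rg rose to 252 ± 5.44 FPKM, against 183 ± 23.5 in inosine and 181 ± 8.19 in glucose. Il2rb, the beta chain of the interleukin 2 receptor, fell to 215 ± 16.3 FPKM, against 332 ± 50.5 in inosine and 343 ± 6.88 in glucose. Csf2rb, a signalling chain of the GM-CSF and interleukin 3 receptors, averaged 0.00638 FPKM with hypoxanthine, 0.00567 FPKM in inosine and 0.000624 FPKM in glucose. Csf2rb2, also on the list, averaged 0.00234 FPKM with hypoxanthine, 0.00832 FPKM in inosine and 0.00697 FPKM in glucose. Lifr and Il13ra1 were also called lower, at 0 with hypoxanthine and 0.0343 and 0.0276 FPKM on average in inosine. Like Csf2rb and Csf2rb2, they were named after their values were seen. Both are among the 4 falls, yet their calls rest on values near the floor (log2 differences -0.049 and -0.039 against inosine).

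Of 39 transcription factor genes known to act on cytokine genes, 16 rose, 5 fell and 18 did not pass against inosine, and 13 rose and 5 fell against glucose. Of all genes 11.7% were higher and 9.59% lower against inosine, and 10.8% higher and 9.55% lower against glucose. The median log2 difference was 0.32 against inosine and 0.2 against glucose, beside 0.0016 and 0.0012 over all genes. Most genes of this list averaged over 1 FPKM, as 9947 of all 20618 genes did, so the list and all genes differ in level. The part of level in these gaps was not tested. Rel, the NF-kappaB subunit c-Rel, rose to 17.9 ± 0.989 FPKM, against 5.14 ± 1.01 FPKM in inosine and 5.34 ± 0.677 FPKM in glucose (limma adjusted p = 7.56e-05 against inosine). Zbtb32, a repressor of cytokine genes in T cells, fell to 92.5 ± 4.48 FPKM, against 184 ± 20.9 FPKM in inosine and 170 ± 9.42 FPKM in glucose (adjusted p = 0.000236 against inosine). The most abundant, Jund, had 140 ± 22.9 FPKM with hypoxanthine, 175 ± 52.6 FPKM in inosine and 167 ± 14.8 FPKM in glucose and did not pass. Irf4, a factor induced by T cell receptor signals, rose to 91.5 ± 1.4 FPKM, against 38.8 ± 6.45 FPKM in inosine. Nfatc1 rose to 28.6 ± 3.21 FPKM, against 14.8 ± 1.82 FPKM in inosine. Nfatc2 and Nfatc3 did not pass (limma adjusted p = 0.765 and 0.954 against inosine). Apart from Zbtb32, the genes that fell against inosine were Jun, Batf, Nfil3 and Prdm1. Jun had 5.31 ± 0.423 FPKM with hypoxanthine and 9.84 ± 1.83 FPKM in inosine, and Batf had 21.1 ± 0.917 and 32.2 ± 4.35 FPKM. Irf4, the NFAT genes and these falling genes were named after their values were seen. Gata3, the type 2 regulator, also named after its values were seen, had 3.49 ± 0.497 FPKM with hypoxanthine, 3.24 ± 0.503 FPKM in inosine and 3.4 ± 0.118 FPKM in glucose (adjusted p = 0.648 against inosine).

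Regulators of cytokine mRNA decay were counted in the same way: of 17 genes 2 rose and 15 did not pass against inosine, and 3 rose against glucose, beside 11.7% of all genes higher against inosine, a share close to that of the list, and 10.8% against glucose. Zc3h12d, an endonuclease of the Regnase family, rose to 25 ± 0.679 FPKM, against 6.43 ± 1.17 FPKM in inosine and 6.34 ± 0.476 FPKM in glucose. Zfp36l1, which binds AU-rich elements in cytokine mRNAs, rose to 44.2 ± 4.36 FPKM, against 16.5 ± 3.03 FPKM in inosine and 18.7 ± 1.25 FPKM in glucose. The abundant Pcbp1 and Khsrp did not pass (adjusted p = 0.934 and 0.532 against inosine).

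**Figure D4:**
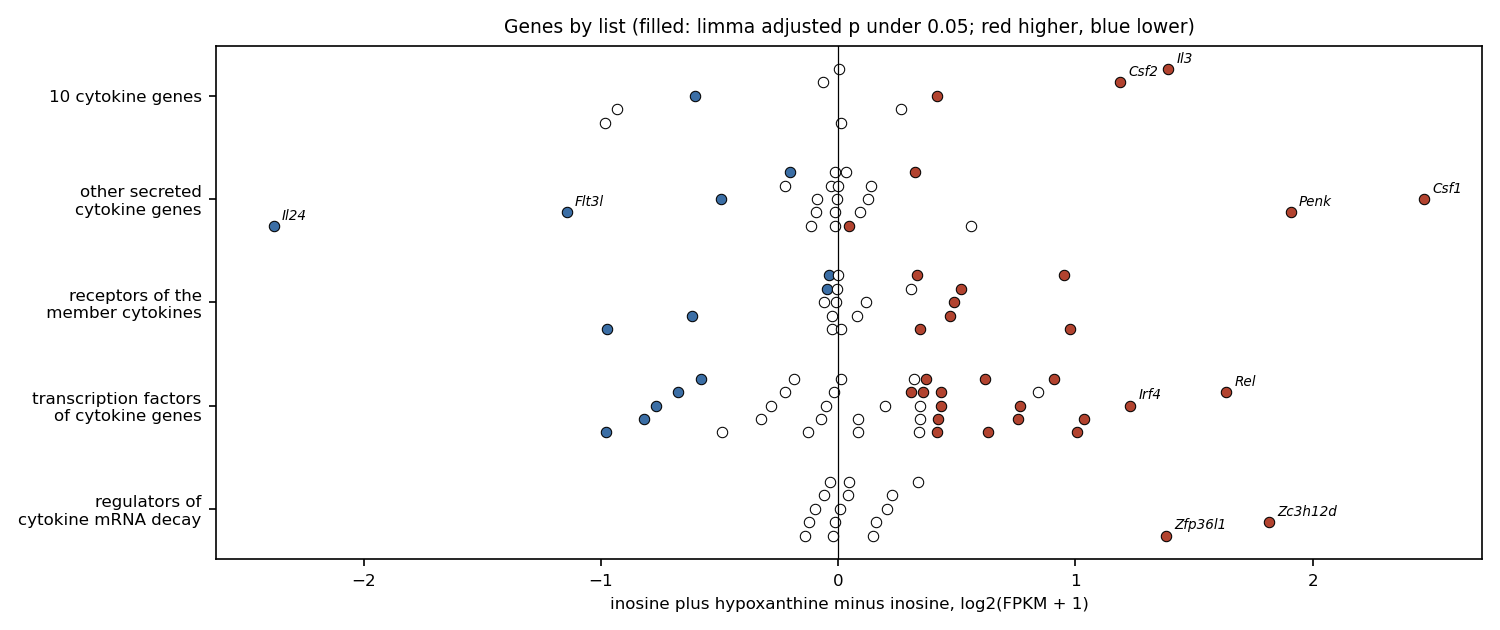
Log2(FPKM + 1) difference of inosine plus hypoxanthine minus inosine for each gene, in rows by list, with the 10 cytokine genes in the top row. Filled points passed limma at an adjusted p under 0.05, red for higher and blue for lower, and names are given where the difference exceeds 1.1 in size. Csf1, Penk, Zc3h12d, Rel and Il3 lie to the right and Il24 to the left.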

How the data were processed

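The authors deposited 3 tables of 20618 genes with FPKM per library, fragment counts divided by gene length and library size. As deposited they also give, per medium, a signal that is the mean of size-factor-scaled read counts over 3 libraries, and the authors' log2 fold changes, p-values and adjusted p-values. The tools named in the submitters' processing notes are DESeq2 1.38.3, Subread 2.0.1, featureCounts and HISAT2, with the build mm10. The part each played, the strand setting and the FPKM formula are not given in the sources used here. In the tables with hypoxanthine the deposited log2 fold change runs as control over hypoxanthine.

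Differences were tested with limma 3.58.1 (R 4.3.3; trend, robust) over all genes, as log2(FPKM + 1) in the 9 libraries, with 1 mean per medium and 6 residual degrees of freedom. Benjamini-Hochberg adjustment ran over all genes, and every adjusted p is from limma unless named as the authors'. The script was tested first on simulated counts with the same dispersion in every gene and medium and no shared replicate order. Ifng, Spp1, Csf2, Il3 and Il13 are unlike that, so the test does not show how the fit performs on them. Reads were recovered as whole numbers that fit both deposited group means of a medium, within 0.0005 (at most 0.05 for high counts), for 20537 genes, all 10 cytokine genes among them. Where several solutions fitted, the one nearest the FPKM ratios was taken, within 0.1 on the log2 scale. They served for depth, read numbers and voom only. The 10 genes and the 4 lists were chosen with earlier results of these data known. Named list genes are the 2 of smallest adjusted p against inosine and the 2 of highest mean FPKM, unless said otherwise, and genes of like pattern are the 2 of highest Pearson r over the 9 libraries. The 95% intervals are from limma and reflect the spread between libraries, pooled over the 3 media. The limit given for a count of 0 covers counting error only.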

Additional observations from a re-analysis of the deposited data

How the results depend on the processing

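Against inosine, 4 of the cytokine genes were called with a pseudocount of 0.1 FPKM, median-of-ratios scaling, the 2 media alone and limma voom, and 3 with a filter of mean FPKM of at least 1, which removes Il2. Against glucose the pseudocount of 0.1 gave 5, the filter 3, the 2 media alone 3, and scaling and voom 4 each. Leaving out single libraries gave 2 to 5 calls against inosine, 1 to 4 against glucose and 0 for inosine against glucose. With a replicate block over 9 libraries 6 genes were called in each comparison with hypoxanthine, Spp1 (adjusted p = 0.0148 and 0.0218) and Il13 (0.0369 and 0.0331) being added. With the block in the 2 media alone 3 were called against inosine and 1 against glucose (adjusted p of Il3 0.0543 against inosine, and of Csf2 0.081, Il3 0.103 and Il2 0.174 against glucose), a fit with fewer residual degrees of freedom. Libraries of equal number were not treated as pairs, since the labels do not tie them and not every correlation exceeded 0.1: their deviations correlated at 0.411, 0.635 and 0.018 for numbers 1, 2 and 3 between hypoxanthine and inosine, at 0.085, -0.201 and -0.063 between hypoxanthine and glucose, and at 0.404, 0.264 and -0.27 between inosine and glucose, over 9947 genes. Hypoxanthine replicate 3 correlated best with inosine replicate 1 (0.304). Directions of called genes held throughout. Of uncalled genes, signs changed when single libraries were left out. The log2 difference of Il10 against inosine ran from -0.16 to 0.1, and was 0.1 without inosine replicate 2. For inosine against glucose the log2 difference ran from -0.13 to 0.51 for Ifng, from -0.23 to 0.39 for Spp1, from -0.29 to 0.4 for Csf2, from -0.22 to 0.61 for Il3, from -0.1 to 0.04 for Osm and from -0.4 to 0.31 for Il13. The causes were not tested. Depth limits Il2, Il4, Il10, Il13 and Il21, which rest on few reads.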
